A study of Mus musculus with 2 samples.

Results

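The genes described here are those of the albumin family, albumin (Alb), alpha-fetoprotein (Afp), afamin (Afm) and the vitamin D-binding protein (Gc), together with transthyretin (Ttr). They were chosen by name and found in both count tables through their Ensembl identifiers in GENCODE mouse M21, which gave 5 of the 55421 genes listed. RNA of mouse liver was sequenced in 2 libraries, 1 per genotype, with totals of 65121596 (WT) and 63587567 (Rcrin knockout) counts. Mice of the WT library carried floxed Rcrin alleles, which hold loxP sites but keep the gene. Mice of the other library were Rcrin conditional knockouts, and both libraries are labelled with a time of 8 weeks. The driver of the deletion, the strain, the sex and the number of mice behind a library are not given in the sources used here, and the level of Rcrin was not analysed here. Since each genotype has 1 library, the variation among mice is unknown, nothing was tested, and whether the genotypes overlap cannot be judged. Differences are therefore differences of 2 libraries, and their intervals hold counting error alone.

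The albumin family arose by duplication of one ancestral gene, and its proteins are secreted into plasma as carriers. Albumin, the main protein of plasma, holds water in the vessels and carries fatty acids, bilirubin and drugs. Alpha-fetoprotein is its fetal counterpart, made by yolk sac and fetal liver and silenced in the liver after birth. Afamin binds vitamin E, and the Gc protein carries vitamin D metabolites and scavenges actin released from damaged cells. Transthyretin is unrelated in sequence. It is a tetramer, made mainly by liver and choroid plexus, that carries thyroxine and, through retinol-binding protein, vitamin A. Albumin and transthyretin are textbook examples of plasma proteins whose synthesis falls in inflammation.

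All 5 genes stood higher in the Rcrin knockout library than in WT. Of the 12064 genes compared, those averaging 50 counts or more over both libraries, 49.2% had a log2 ratio of knockout over WT above 0. At least 2-fold higher were 8.45% of the genes compared, and at least 2-fold lower 8.61%. Alb, Afp, Afm, Gc and Ttr were chosen with earlier results of these data known, so their shared direction is a description only. All 5 reached the average of 50 counts, Afp only through its count in the knockout library. Afm passed 2-fold upward and none of the 5 passed it downward. The ratio of Afp was also above 2-fold, but its counting interval took in smaller ratios. Together the 5 genes had 4114881 counts in WT and 6708281 in the knockout. That was 6.32% of the WT library and 10.5% of the knockout library, a gain of 4.23 percentage points. Scaled between libraries with edgeR's TMM factors, the sum was 1.73-fold higher (log2 ratio 0.79). Albumin made up 81.4% of the sum in WT and 83.5% in the knockout library.

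**Figure D1:**
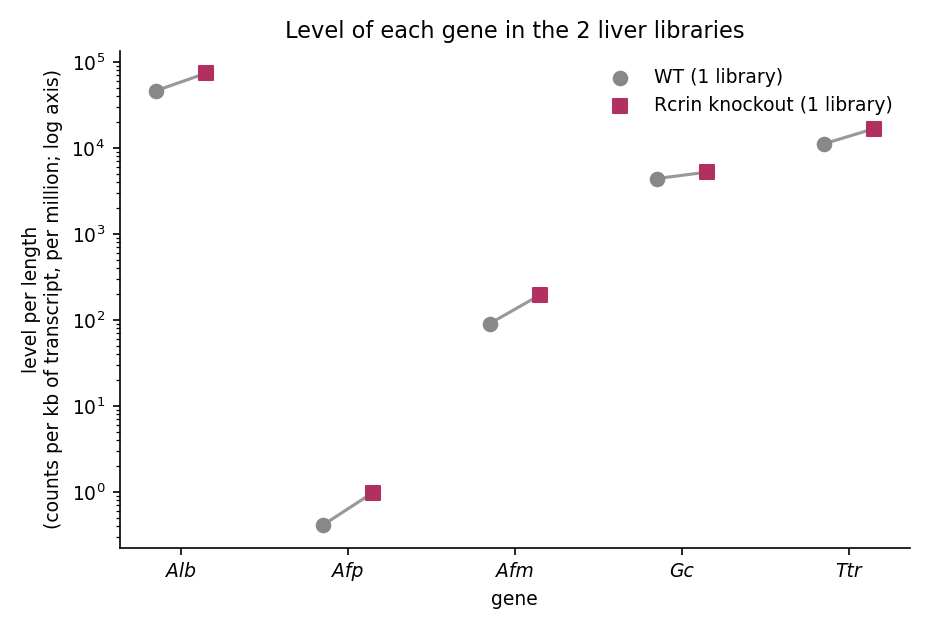
Level of each gene per length (vertical log axis, length-scaled CPM, that is counts per kilobase of transcript per 1000000 such units of the library) in the WT library (grey circles) and the Rcrin knockout library (red squares). All 5 genes lie higher in the knockout library, and their order is the same in both, from Alb at 46400 and 74100 down to Afp at 0.409 and 0.979.

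The 4 family genes lie on GRCm38 chromosome 5. Alb (ENSMUSG00000029368, 90460897 to 90476602, 15 exons), Afp (ENSMUSG00000054932, 90490737 to 90508907, 15 exons) and Afm (ENSMUSG00000029369, 90518932 to 90553543, 15 exons) follow each other on the plus strand. The gap from Alb to Afp is 14134 bases and that from Afp to Afm is 10024 bases, so the cluster spans 92.6 kb. Gc (ENSMUSG00000035540, 89417522 to 89457898, 13 exons) lies on the minus strand, 1003.0 kb before Alb. All 4 are annotated as protein coding.

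The bases just before the starts of the family genes are shown, from the RefSeq promoter table on GRCm38.p6, which held 4 of the 5 genes. Each runs 5′ to 3′ on the strand of its gene: chr5:90460620-90460869 (plus) for Alb, chr5:90490464-90490713 (plus) for Afp, chr5:90518699-90518931 (plus) for Afm and chr5:89457899-89458148 (minus) for Gc. Capitals mark matches, on either strand, to any of 5 motifs, whose letters are given with their counts after the sequences.
Alb: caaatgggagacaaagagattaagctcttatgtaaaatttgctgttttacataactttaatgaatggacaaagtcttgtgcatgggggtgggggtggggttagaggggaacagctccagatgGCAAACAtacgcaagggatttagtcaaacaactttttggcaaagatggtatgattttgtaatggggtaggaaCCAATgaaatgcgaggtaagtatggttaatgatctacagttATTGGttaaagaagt
Afp: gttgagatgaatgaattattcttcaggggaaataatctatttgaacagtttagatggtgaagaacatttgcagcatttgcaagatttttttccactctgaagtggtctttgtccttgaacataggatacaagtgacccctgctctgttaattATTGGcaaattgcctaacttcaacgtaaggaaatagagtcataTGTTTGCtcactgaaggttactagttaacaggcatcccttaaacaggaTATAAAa
Afm: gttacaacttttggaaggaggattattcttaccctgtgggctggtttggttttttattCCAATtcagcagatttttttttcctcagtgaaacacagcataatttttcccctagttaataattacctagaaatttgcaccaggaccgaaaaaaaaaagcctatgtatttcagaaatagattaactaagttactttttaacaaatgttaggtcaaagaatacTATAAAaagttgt
Gc: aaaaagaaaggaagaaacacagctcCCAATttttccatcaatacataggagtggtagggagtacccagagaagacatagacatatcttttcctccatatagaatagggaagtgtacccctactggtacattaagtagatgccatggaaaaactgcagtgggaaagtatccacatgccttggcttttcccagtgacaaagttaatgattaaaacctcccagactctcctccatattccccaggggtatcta

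The CCAAT box matched in each of the 4 promoters, and 33.8% of the 32851 promoters of the table hold it. All promoters, these 4 included, were searched over the 250 bases before the RefSeq start, although the last bases for Afm are not printed. Its first base lay at -56 and -15 in Alb, -98 in Afp, -192 in Afm and -225 in Gc, counted from the RefSeq start. The FOXA motif, searched as TGTTTGC, matched in Alb (-128) and Afp (-55), against 4.30% of promoters. FOXA proteins are pioneer factors of liver genes. The box of the core promoter, searched as TATAAA, matched in Afp (-7) and Afm (-30), against 12.4%. The motif of the C/EBP factors, searched as TTGCNCAA, is held by 2.61% of promoters and had no match in these 4. The HNF4 motif, searched as CAAAGTCCA, is held by 0.384% and had none here either. No match overlapped another. The GENCODE start lies 27 bases downstream of the RefSeq start in Alb and 23 in Afp, and in Afm it lies upstream of it, where the printed sequence was ended. A match is a description of letters and not evidence of binding.

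Albumin was the most abundant gene of both libraries, by count and per length. It had 3350104 counts in WT and 5599153 in the knockout library. These were 5.14% (exact Clopper-Pearson 95% interval 5.14% to 5.15%) and 8.81% (8.80% to 8.81%) of all counts. The ratio was 1.77-fold (log2 ratio 0.83, interval 0.82 to 0.83). Of the genes compared, 11.7% had a higher ratio. Among the 76 genes that averaged 100000 counts or more, 55.3% were above 0, beside 49.2% of all genes compared. At least 1.5-fold higher were 17.1% of the 76 (13 genes), beside 2289 of all 12064 genes compared. Albumin ranked 5th of these 76 by ratio, after Apoa2, Gsta3, Mgst1 and Mup3. The gene next below it by count changed between libraries. It was transferrin (Trf, the iron carrier, 2213531 counts) in WT and Serpina3k (2102938 counts) in the knockout library. Trf had a log2 ratio of -0.93 and Serpina3k one of 0.41.

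Transthyretin (ENSMUSG00000061808, GRCm38 chromosome 18 from 20665280 to 20674321, plus strand, protein coding) had 473734 counts in WT and 740072 in the knockout library. Its share of counts was 0.727% (0.725% to 0.730%) and 1.16% (1.16% to 1.17%), and its rank moved from 18 to 11. The ratio was 1.66-fold (log2 ratio 0.73, interval 0.72 to 0.73), and 14.1% of genes compared had a higher one. It was 8th by ratio among the 76 most abundant genes. Ttr has only 4 exons, and of the 891 genes compared with 4 exons, 23.0% (205 genes) were at least 1.5-fold higher. Over all 12064 genes compared, 2289 were. Per length, Alb stood 4.12 times above Ttr in WT and 4.41 times above it in the knockout library, and their log2 ratios differed by 0.10. By count Ttr stood between the fibrinogen gene Fgg and the serum amyloid gene Saa2 in WT, and between Serpina1c and hemopexin (Hpx) in the knockout library. Of these neighbours Serpina1c had a log2 ratio of 0.43, and Fgg (-0.38), Hpx (-0.95) and Saa2 (-6.62) were lower in the knockout library.

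The vitamin D-binding protein gene showed the smallest difference of the 5. Gc had 283071 counts in WT and 351106 in the knockout library, 0.435% (0.433% to 0.436%) and 0.552% (0.550% to 0.554%) of all counts. Its rank moved from 27 to 19. The ratio was 1.32-fold (log2 ratio 0.40, interval 0.39 to 0.40). A ratio this size was common, since 27.1% of genes compared had a higher one, and Gc was 24th of the 76 most abundant genes. By count Gc stood between the ferritin gene Ftl1 and Mup7 in WT, and between Mup3 and Fgg in the knockout library. Values of Mup, Saa and Serpina1 genes are uncertain, since close paralogs can share their reads. Per length Alb stood 10.5 times above Gc in WT and 14.1 times above it in the knockout library.

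Afamin is expressed far below the 3 abundant carriers. Afm had 7942 counts in WT and 17875 in the knockout library, 0.0122% (0.0119% to 0.0125%) and 0.0281% (0.0277% to 0.0285%) of all counts. Its rank moved from 1030 to 468. The ratio was 2.39-fold (log2 ratio 1.26, interval 1.22 to 1.29), and 5.60% of genes compared had a higher one. Of the 3933 genes compared with at least 13 exons, 5.03% were at least 2-fold higher, beside 8.45% of all genes compared. At least 1.5-fold higher were 13.1% of the 3933 (516 genes), beside 2289 of all 12064 genes compared. Its GC content of 43.2% was the lowest of the 5, and once a trend of the ratio with GC content was removed its log2 ratio was 0.95, short of 2-fold. At its 3′ end Afm overlaps Gm42109, a transcript on the other strand with 6 and 27 counts, too few to move the value.

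Alpha-fetoprotein was scarce in both libraries. Afp had 30 counts in WT and 75 in the knockout library, 4.61e-05% (3.11e-05% to 6.58e-05%) and 0.000118% (9.28e-05% to 0.000148%) of all counts. A count of 0 would have allowed a share of up to 4.61e-06% and 4.72e-06%. Its rank moved from 12783 to 11175. The ratio was 2.62-fold (log2 ratio 1.39), but with so few reads its interval ran from 0.78 to 2.07 and took in ratios under 2-fold. Among the 1175 genes with a mean of 50 to 100 counts, where Afp lies, the quartiles of the log2 ratio were -0.69 and 0.64. Of these genes, 186 were at least 2-fold higher and 204 lower, beside 8.45% and 8.61% of all genes compared. Afp reached this class only through its knockout count, so its place there is tied to its ratio. Per length, Alb stood 113000 times above Afp in WT and 75700 times in the knockout library. The antisense gene Gm43449 overlaps Afp and had 2 and 12 counts. The use of strand in counting was not given in the sources used here, so reads of these 2 genes cannot be told apart, and with both added together, a choice made after seeing the data, the log2 ratio was 1.51.

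**Figure D2:**
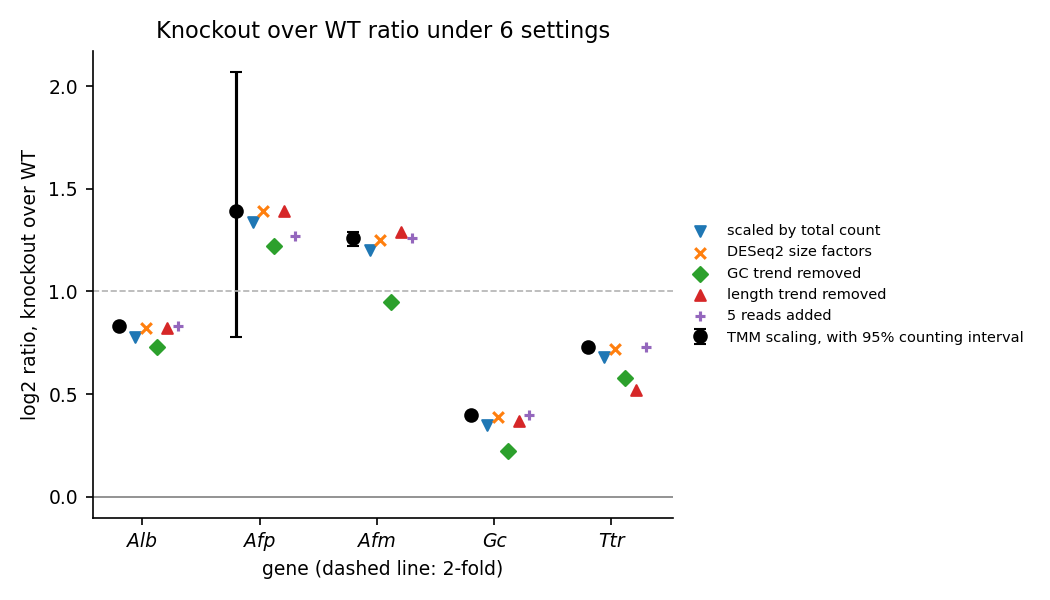
Log2 ratio of knockout over WT for each gene with its 95% counting interval (black) and under 5 other settings (coloured symbols); the dashed line marks 2-fold. All values lie above 0, and removing the GC trend brings Afm from 1.26 to 0.95.

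Per length, the order Alb, Ttr, Gc, Afm, Afp was the same in both libraries. The step from Ttr to Gc was the smallest in both, with Gc at 0.393 of the level of Ttr in WT and 0.312 in the knockout library. Afm lay at 0.0205 and 0.0372 of the level of Gc. Afp lay at 0.00451 and 0.00501 of the level of Afm. Because each step has 1 library per genotype, the spread of these proportions is unknown.

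**Figure D3:**
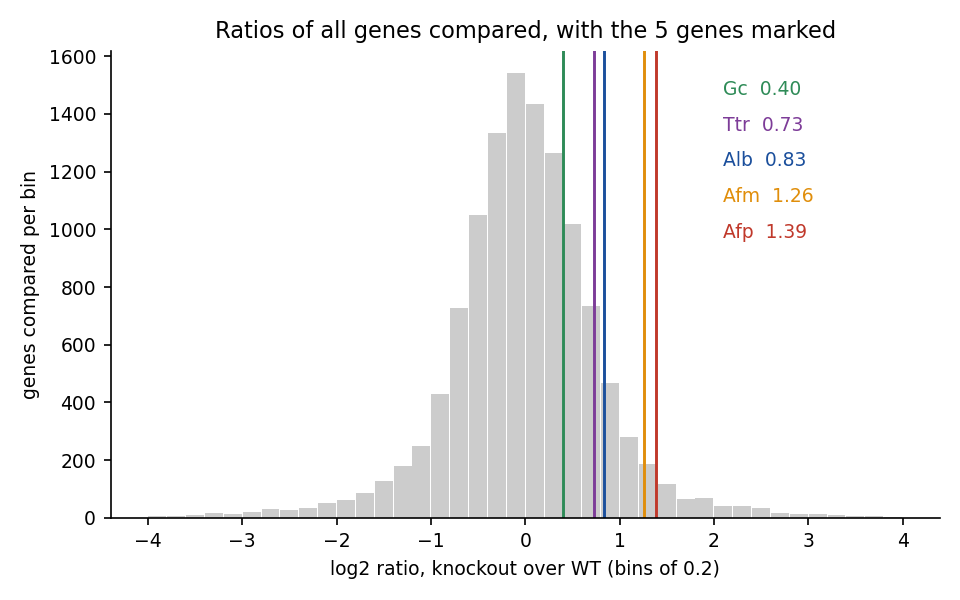
Number of genes compared in each bin of log2 ratio of knockout over WT (grey bars, bins of 0.2), with the 5 genes as coloured lines; 123 genes lie below and 118 above the plotted range. Gc (0.40), Ttr (0.73) and Alb (0.83) lie on the upper shoulder of the distribution and Afm (1.26) and Afp (1.39) further out.

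The genes around the cluster did not all share the direction of the family. Directly after Afm lies 5830473C10Rik (ENSMUSG00000070690, chromosome 5 from 90561107 to 90597871, 14 exons), which RefSeq lists as Albfm1, a further member of the albumin superfamily. It had 705 counts in WT and 2164 in the knockout library, a 3.26-fold ratio (log2 ratio 1.70, interval 1.58 to 1.83). That is a larger ratio than those of Alb, Afm, Gc and Ttr, and it lies within the interval of Afp. Next to it, Rassf6, which encodes a Ras-association domain protein, had 278 and 412 counts (log2 ratio 0.65, interval 0.43 to 0.88). On the other side of Alb, the ankyrin repeat gene Ankrd17 had 917 and 575 counts (log2 ratio -0.59, interval -0.74 to -0.44). Cox18, a mitochondrial membrane insertase, had 635 and 403 counts (log2 ratio -0.57). Both were lower in the knockout library. Gm9958, a 1-exon gene between Ankrd17 and Alb, had 25 and 14 counts and was not compared. Of the 9 compared genes within 600 kb of the outermost family genes, with the 4 family genes left out, 4 were above 0, against 49.2% of all genes compared, and 1 was at least 2-fold higher, against 8.45%. These 9 still include the superfamily member 5830473C10Rik, which was the 1 gene at least 2-fold higher.

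**Figure D4:**
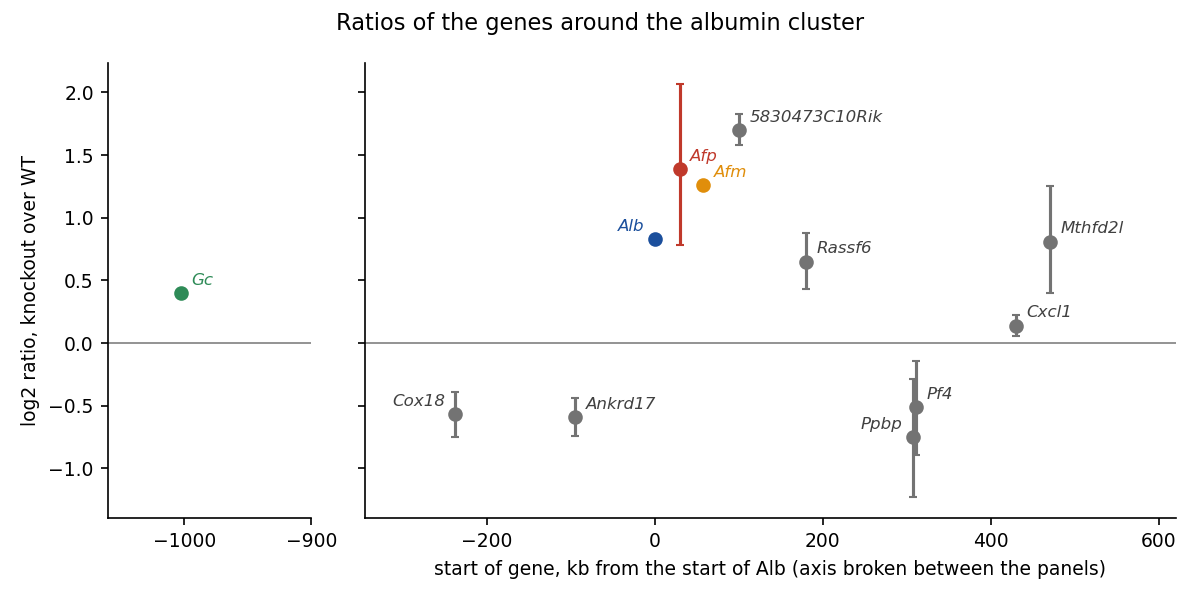
Log2 ratio of knockout over WT, with 95% counting intervals, for compared genes around the albumin cluster, against the distance of each gene's start from that of Alb in kb (axis broken between the panels). The left panel holds Gc (0.40). Slc4a4 (-0.00), which starts further before Alb, is not plotted. Alb (0.83), Afp (1.39), Afm (1.26) and 5830473C10Rik (1.70) lie above 0, as do Rassf6 (0.65), Cxcl1 (0.14) and Mthfd2l (0.81) further along; Ankrd17 (-0.59), Cox18 (-0.57), Pf4 (-0.51) and Ppbp (-0.75) lie below it.

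Of the neighbours of Gc, the bicarbonate cotransporter gene Slc4a4 had 2700 and 2539 counts (log2 ratio -0.00, interval -0.08 to 0.08). Npffr2 and Adamts3, between Gc and Cox18, were listed at 0 in both libraries. Around Ttr, the desmosomal cadherin gene Dsg2 had 1794 and 261 counts (log2 ratio -2.69). The glycolipid synthesis gene B4galt6 had 118 and 58 counts (log2 ratio -0.93). Trappc8 had 796 and 790 counts (log2 ratio 0.07), and Dsg3 was listed at 0 in both libraries. None of these 3 compared neighbours of Ttr had a ratio near its own.

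Markers checked the tissue label. All 10 hepatocyte markers had counts in both libraries, none below 315 CPM (counts per library total of 1000000). Their summed level was 39700 CPM in WT and 45000 in the knockout library (log2 ratio 0.23), with 7 of 10 above 0. This sum moved in the direction of Alb and Ttr by a smaller amount, and its part in their difference was not tested. Single hepatocyte markers ran from -0.73 (Pck1) to 0.83 (Cps1), and Apoa1 (0.01) weighed most in the sum. In bulk tissue more cells of a type and more RNA per cell cannot be told apart. All 6 red cell markers were detected, with a sum of 3140 and 770 CPM, and 1 of the 6 had a ratio above 0. The 4 globin genes and Slc4a1 were lower in the knockout library, with log2 ratios of -3.30 to -2.03. Alas2, the erythroid enzyme of heme synthesis, was higher (13871 and 19110 counts, 0.55). The part of red cells in the results was not tested. Kupffer cell markers summed to 1220 and 880, endothelial markers to 296 and 291, stellate markers to 131 and 121 and cholangiocyte markers to 27.4 and 16.2. These sums hide markers that went opposite ways. Above 0 were 2 of 7 Kupffer, 4 of 7 endothelial, 2 of 7 stellate and 2 of 5 compared cholangiocyte markers. Kupffer markers ran from -0.70 (Csf1r) to 1.02 (Vsig4), endothelial ones from -1.13 (Oit3) to 2.23 (Bmp2). Stellate ones ran from -1.67 (Col1a1) to 0.37 (Dcn). The bile duct channel gene Cftr was listed at 0 in the WT library. Of other tissues that express Ttr, all 6 islet markers, insulin and glucagon genes among them, were at 0 in both libraries. Of 7 choroid plexus markers, Kl, Kcne2 and Otx2 were at 0 in both, and the sum of 113 and 149 was almost wholly the water channel Aqp1, which other liver cells express. Of 6 kidney tubule markers, 4 were at 0 in both libraries, and the sum stayed at 0.0614 and 0.299 CPM.

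Transcription factors known to act on the Alb and Afp genes were split in direction. Of 27 listed, 23 were compared, with 11 above 0, 7 at least 2-fold higher and 3 at least 2-fold lower, and a median log2 ratio of -0.14. Over all genes compared, 49.2% were above 0, 8.45% at least 2-fold higher and 8.61% at least 2-fold lower, with a median of -0.01. The orphan nuclear receptor Nr5a2, an activator of Afp, had 316 and 1253 counts (log2 ratio 2.07). The pioneer factor Foxa1, which has only 2 exons, had 69 and 178 counts (1.45). Of the 851 genes compared with 1 or 2 exons, 160 were at least 2-fold higher and 176 lower. The quartiles of their log2 ratios were -0.69 and 0.64, wider apart than -0.44 and 0.44 over all genes compared. The zinc finger factor Gata4 was the lowest (1888 and 491 counts, -1.86). The next genes are named after their values were seen. Hnf4a, a central hepatocyte regulator, had 7694 and 16348 counts (1.17). Zbtb20 and Zhx2, which repress Afp after birth, were both compared. Zbtb20 had 449 and 964 counts (1.19) and Zhx2 had 1337 and 979 counts (-0.36), so they lay on opposite sides of 0.

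Of 16 other fetal liver genes listed, 6 had enough counts to be compared. Of these, 1 was above 0 (49.2% of all genes compared), 2 were at least 2-fold lower (8.61%) and the median log2 ratio was -0.80. The imprinted noncoding RNA H19, which like Afp is switched off after birth, had 139 and 60 counts (log2 ratio -1.12, interval -1.59 to -0.68). Tff3, a trefoil peptide of mucosal surfaces, was the lowest at -1.18. Epcam, an adhesion protein of bile duct and progenitor cells, was the highest at 0.39, with 60 and 74 counts and an interval of -0.12 to 0.90. Plac8 had a ratio of -0.38.

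The other plasma carrier proteins of the liver were mixed. All 28 listed were compared, 11 were above 0, 2 were at least 2-fold higher and 4 at least 2-fold lower, with a median log2 ratio of -0.20. Over all genes compared the shares were 49.2%, 8.45% and 8.61%, so the count at least 2-fold higher was near the background. The count above 0 lay below its share, and the count at least 2-fold lower lay above it. The highest were insulin-like growth factor binding protein 1 (Igfbp1, 6673 and 25244 counts, interval 1.97 to 2.04) and apolipoprotein A-II (Apoa2, 412681 and 1096775 counts, interval starting at 1.49). The lowest were apolipoprotein A-IV (Apoa4, -2.38) and orosomucoid 2 (Orm2, -2.28), an acute phase protein. Of the 11 liver proteins known to be lowered in the acute phase, as Alb and Ttr are, 5 were above 0, 2 were at least 2-fold higher and 1 at least 2-fold lower, with a median of -0.17. The counts above 0 and at least 2-fold lower lay near the shares of all genes (49.2% and 8.61%). The count at least 2-fold higher, 2 of 11, lay above the share of all genes (8.45%), but rests on 2 genes. Paraoxonase 1 (Pon1, 1.69) and Igf1 (1.23) were highest, and Apoa4 and Trf (-0.93) lowest. The 2 lists share genes, Trf and Apoa4 among them. Alb, Ttr and Gc lay above the medians of both lists, but they did not stand apart from the other carriers. Igfbp1 and Apoa2 had higher ratios than Alb, and Azgp1 (0.76) and Igfbp2 (0.74) lay near Ttr (0.73). Trf, an abundant carrier like Alb, lay on the other side of 0, and only 11 of the 28 carriers were above 0.

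**Figure D5:**
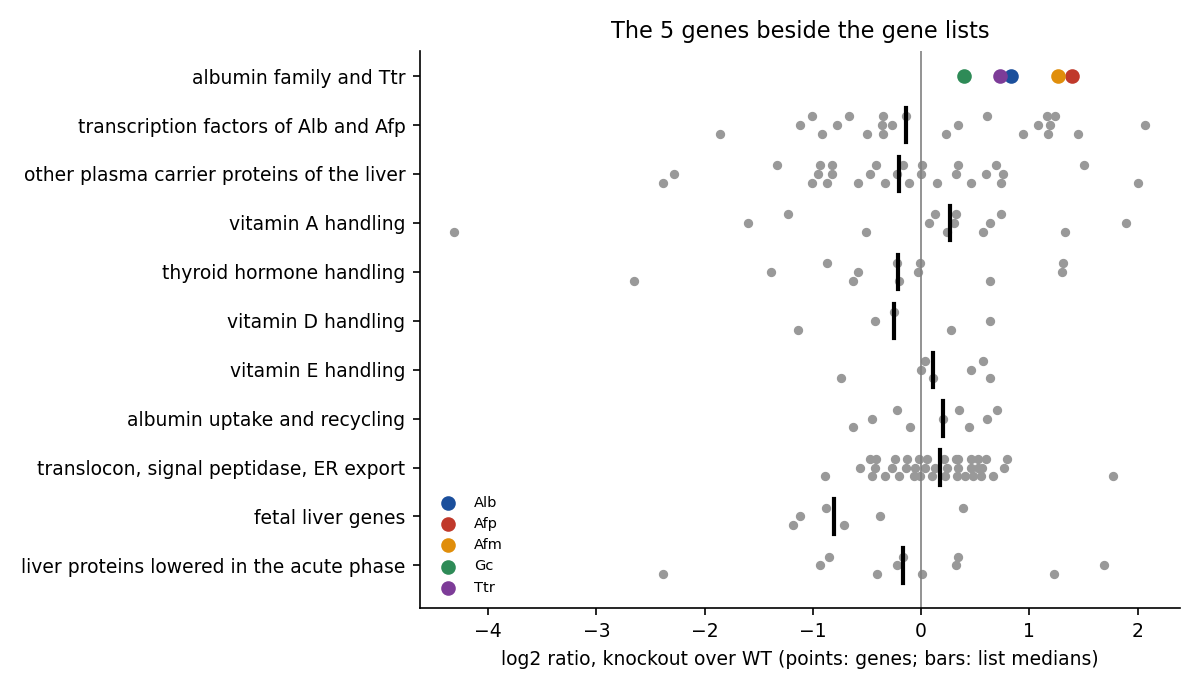
Log2 ratio of knockout over WT (horizontal axis) of the 5 genes (top row, coloured) and of the compared genes of 10 lists (grey points; black bars are list medians). The 5 genes lie between 0.40 and 1.39, and list medians between -0.80 and 0.27.

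Genes that handle the ligands of these carriers are given by cargo, beside 49.2% above 0, 8.45% at least 2-fold higher and 8.61% lower among all genes compared. For vitamin A, the cargo that Ttr carries with Rbp4, 14 of 17 genes were compared, with 10 above 0, 2 at least 2-fold higher, 3 lower and a median of 0.27. Retinol-binding protein Rbp4 itself had 196717 and 231739 counts (log2 ratio 0.32), less than Ttr at 0.73. The retinoic acid hydroxylases went opposite ways, Cyp26a1 at 1.89 (138 and 482 counts) and Cyp26b1 at -4.31 (513 and 24 counts). The retinal reductase Rdh11 stood at 1.33 and the retinoic acid receptor Rara at -1.60. For thyroid hormone, 12 of 14 genes were compared, with 3 above 0, 2 at least 2-fold higher, 2 lower and a median of -0.21. The amino acid and thyroid hormone transporter Slc16a10 had 7096 and 1066 counts (-2.65), and the deiodinase Dio1 had 11709 and 4197 (-1.39). The transporter Slco1a1 (1.31) and the hormone-induced Thrsp (1.30), a 2-exon gene, were highest.

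For vitamin D, the cargo of Gc, 5 of 10 genes were compared, with 2 above 0, 1 at least 2-fold lower and a median of -0.25. The 25-hydroxylase Cyp2r1 had 351 and 517 counts (log2 ratio 0.64) and Cyp3a11, a drug-metabolising cytochrome P450, stood at 0.28. The heterodimer partner of the receptor, Rxra, stood at -1.14 and the sterol reductase Dhcr7 at -0.43. For vitamin E, a cargo of Afm, all 7 genes were compared, 5 were above 0, none passed 2-fold and the median was 0.11. The tocopherol hydroxylase Cyp4f14 (0.64) and the nuclear receptor Nr1i2 (0.57) were highest, and Pltp (-0.74) and Sec14l2 (-0.00) lowest.

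The routes by which these proteins leave and re-enter cells were described by 2 lists. Of 40 genes of the translocon, signal peptidase and export from the endoplasmic reticulum, all were compared, 24 were above 0 (49.2% of all genes), 1 was at least 2-fold higher (8.45%) and 0 lower (8.61%), with a median of 0.17. Srp72, a subunit of the signal recognition particle, had 1307 and 4211 counts (log2 ratio 1.77), followed by Srp9 (0.79). The coat protein gene Sec31a (-0.89) and Furin (-0.56), the protease that trims proalbumin, were lowest. Of 12 genes of albumin uptake and recycling, 9 were compared, 5 were above 0, none passed 2-fold and the median was 0.20. Dab2 (0.70) and Sparc (0.61) were highest, and the scavenger receptors Stab2 (-0.63) and Stab1 (-0.45), found on sinusoidal endothelium, lowest. The recycling receptor Fcgrt, named after its value was seen, had 18553 and 16349 counts (-0.10).

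The genes nearest to each of the 5 were sought among 4719 others with at least 4 exons and an average of 1000 counts or more, by the distance between log2 levels per length in the 2 libraries. Nearest to Afm was Lect2, a secreted liver protein, at a distance of 0.0148 (2692 and 6131 counts, log2 ratio 1.27), followed by Aqp8 (0.108) and H2afz (0.122). Nearest to Gc was Rbp4 (0.114), followed by Gnmt (0.283) and Eef1a1 (0.3). Nearest to Ttr were the antitrypsin genes Serpina1b (0.142) and Serpina1c (0.214), which share reads with close paralogs, and Apoc1 (0.661). Alb had no close neighbour, since Apoa2 lay 1.11, Apoe 1.51 and Serpina3k 1.75 away. Afp lay far below the candidates, the nearest of which, Macf1, Dst and Kmt2d, were 1.77, 2.24 and 2.34 away. These distances rest on 2 libraries and say nothing of shared control.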

How the data were processed

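The labels' protocols name Trizol for the extraction of liver RNA and the SMARTER mRNA-Seq kit for the libraries. The authors deposited raw counts of reads for each Ensembl gene, as the file headers and whole numbers show, and the submitters' processing notes name GRCm38 (mm10). The aligner, the counting program, its annotation and the handling of multi-mapping reads are not given in the sources used here. Totals were 65121596 counts (WT) and 63587567 (Rcrin knockout). Names, positions, exon numbers and transcript lengths came from GENCODE M21, in which 55154 of the 55421 listed genes had an entry, and genes without one held 0.00541% and 0.00956% of the counts.

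Counts were scaled with TMM factors (1.02 and 0.982) from edgeR 4.0.16 in R 4.3.3, and 0.5 reads were added before the log2 ratio. No test was run with edgeR or DESeq2 1.42.0, since each genotype has 1 library. Ratios have exact conditional 95% intervals, and shares exact Clopper-Pearson ones. Both cover counting error only, because each genotype has 1 library. PCR copies cannot be told from separate molecules, so the intervals can be too narrow even for counting error. Levels per length are counts per kilobase of the longest annotated transcript, as a share of their sum over all genes (length-scaled CPM). The calculation was run on counts simulated with counting error only, without variation among mice or PCR copies. At the 2-fold limit it called 100.0% of 4-fold changes and 0.0% of 1.5-fold ones, and 95.1% of intervals held the true ratio. Since the simulation shares the assumption of the intervals, it checks the calculation and not how well they describe these data.

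Named were the 5 genes, the 2 highest and 2 lowest of each of 10 lists, the nearest genes by level, the genes next in rank and the nearest coding neighbours on the chromosome. One gene of the transcription factor list and one motif of the promoter search are not reported here. Members and lists were chosen with earlier results of these data known. Alternatives were other scalings, 5 reads added, removal of trends with GC content or length, other fold limits and level filters, and genes with more exons only.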

Additional observations from a re-analysis of the deposited data

How the results depend on the processing

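In each alternative run, the log2 ratios of Alb, Afp, Afm, Gc, Ttr and their sum stayed above 0. The ranges were 0.73 to 0.84 for Alb, 1.22 to 1.51 for Afp, 0.95 to 1.29 for Afm, 0.22 to 0.41 for Gc, 0.52 to 0.74 for Ttr and 0.74 to 0.81 for the sum. Values outside the counting interval, judged before rounding, follow. Scaling by total count gave 0.78 for Alb, 1.20 for Afm, 0.35 for Gc, 0.68 for Ttr and 0.74 for the sum. DESeq2 size factors gave 0.82 for Alb, 0.72 for Ttr and 0.78 for the sum. Total count without the 5 genes gave 0.84 for Alb, 0.41 for Gc, 0.74 for Ttr and 0.81 for the sum, and the median ratio of genes with at least 4 exons gave 0.84, 0.41, 0.74 and 0.80. Removing the trend with GC content gave 0.73 for Alb, 0.95 for Afm, 0.22 for Gc and 0.58 for Ttr, and removing that with length 0.37 for Gc and 0.52 for Ttr. The cause of these shifts was not tested. The trends were not removed from the sum, which has no single GC content or length.

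At least 2-fold higher and lower were 1019 and 1039 genes. They were 3366 and 3556 with no level filter, 452 and 465 with a mean of at least 500 counts, 2289 and 2267 at a limit of 1.5-fold and 303 and 338 at 4-fold. With genes of at least 3 exons as the denominator, Alb held 5.29% of the WT and 9.03% of the knockout counts. No paired analysis was possible because each genotype has 1 library. Among the 5 genes, depth limits Afp most, whose interval spans 2-fold.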
